A study of Mus musculus with 6 samples.

Results

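The genes described here are 10 transcription factors and regulators that steer CD8+ T cells between effector and memory fates, namely Tbx21, Eomes, Tcf7, Lef1, Id2, Id3, Prdm1, Bcl6, Tox and Zeb2. They were taken by symbol from a table of 11922 genes, all 10 were found, and all 10 passed the filter on low counts that left 11759 genes for testing. Splenic CD8+ T cells of C57BL/6J mice, positively selected with magnetic anti-CD8α beads, were activated with anti-CD3 and anti-CD28 beads for 3 days, washed, and expanded for 4 days more, with 100 units per ml of interleukin-2 present throughout. For the whole 7 days, cultures received either water as vehicle or 0.25 mM aminooxyacetic acid (AOA), an inhibitor of enzymes that use pyridoxal phosphate, the active form of vitamin B6. Both groups were thus sampled late in expansion, days after the antigen receptor signal was given. Each of 3 donor mice gave 1 culture to each group, and the libraries are numbered by mouse, so there were 3 vehicle and 3 AOA libraries. The labels name no transgene, age or sex for the donors.

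Activated CD8+ T cells follow diverging programs. T-bet (Tbx21), Blimp-1 (Prdm1), ID2 and ZEB2 are known for promoting terminal effector cells, whereas TCF-1 (Tcf7), LEF-1 (Lef1), BCL6, ID3 and, in part, EOMES are linked to naive, memory precursor and self-renewing states. TOX is known for the program of chronically stimulated cells. Blimp-1 and BCL6 oppose each other directly, as they repress each other's genes. The ID proteins share an activity, since both capture E proteins and keep them off DNA.

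Total counts ranged from 12881962 to 18934869 in the vehicle libraries and from 18696114 to 21997078 in the AOA libraries. The counts of the fate factors ran from 8, for Zeb2 in AOA replicate 1, to 30247, for Tcf7 in vehicle replicate 3. Vehicle replicate 2 stood apart from the other vehicle libraries on the second principal component of log2 CPM, where CPM stands for normalised counts scaled to a common library size, at -44.2 against 21.9 and 19.4. By the chi-square of counts per gene, it stood at 54.7 and 59.4 from the other vehicle libraries, which were 9.93 apart, and AOA replicate 1 stood at 63.5 and 70.1 from the other AOA libraries, which were 10.4 apart. On the second component the AOA libraries 1, 2 and 3 were at 6.30, -7.97 and 4.56. In these bulk cultures, a smaller number of cells of a type and less RNA per cell cannot be told apart.

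Of the 10 fate factors, 7 passed the threshold of edgeR's quasi-likelihood test, 2 of them higher and 5 lower with AOA. A gene was called when its p, adjusted by the Benjamini-Hochberg method over all genes tested, was under 0.05. Treatment changed a large part of the transcriptome, and 53.0% of all genes tested were called, 26.2% as higher and 26.8% as lower. Id3 and Tox were the factors that rose, by log2 fold changes of 1.91 and 1.42. Bcl6, Prdm1, Id2, Lef1 and Tbx21 fell by 4.49, 2.31, 1.20, 0.79 and 0.74 on the log2 scale. Factors from both sides of the effector and memory divide were thus among those lowered. Eomes, Tcf7 and Zeb2 were not called. For 6 of the 10 factors the ranges of AOA and vehicle libraries did not overlap, which was also the case for 62.1% of all genes tested. The median log2 fold change of the 10 factors was -0.77, against -0.02 over all genes tested. When mouse was a replicate block in the fit, 8 factors passed, the added one being Zeb2, beside 53.5% of all genes. Without vehicle replicate 2 the number was also 8, and there the added factor was Tcf7. Without AOA replicate 3, the calls of Lef1 and Id2 were lost and 3 factors were lower.

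**Figure D1:**
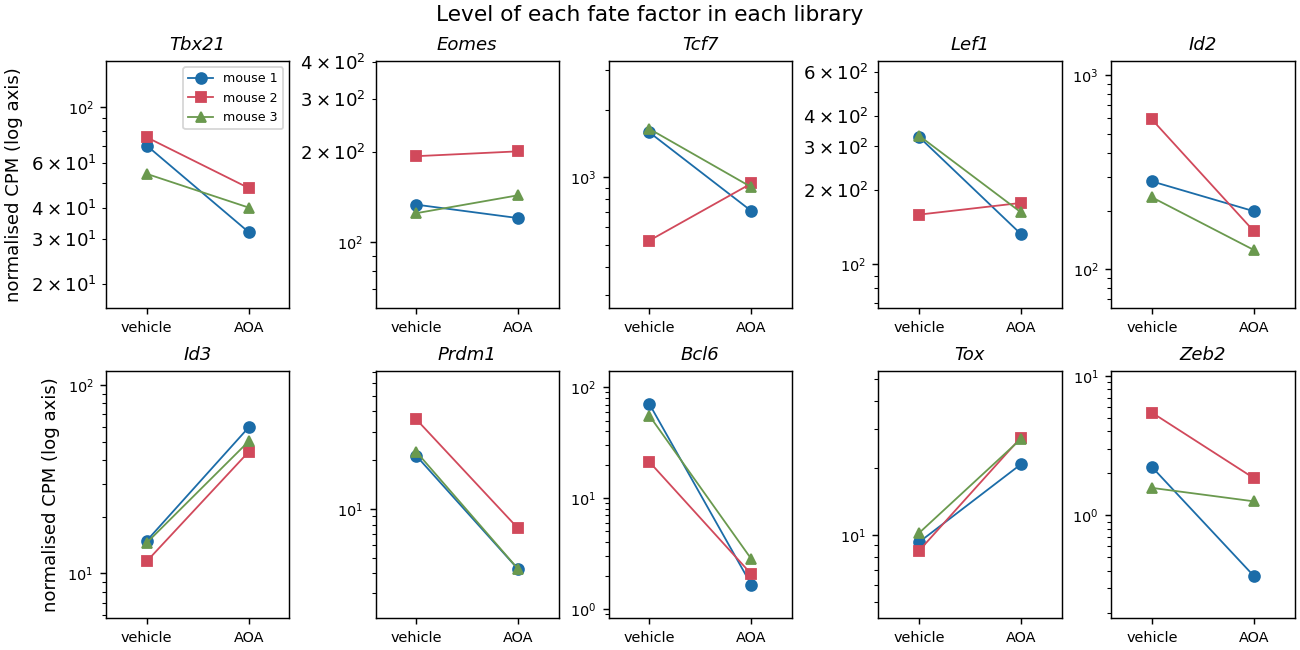
Level of each fate factor in each library, in CPM on a log axis, with the vehicle and AOA cultures of a mouse joined by a line. The lines of Id3 and Tox rise and those of Tbx21, Id2, Prdm1, Bcl6 and Zeb2 fall in all 3 mice, whereas Tcf7 and Lef1 fall in mice 1 and 3 and are higher with AOA in mouse 2, and the lines of Eomes are nearly level.

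**Figure D2:**
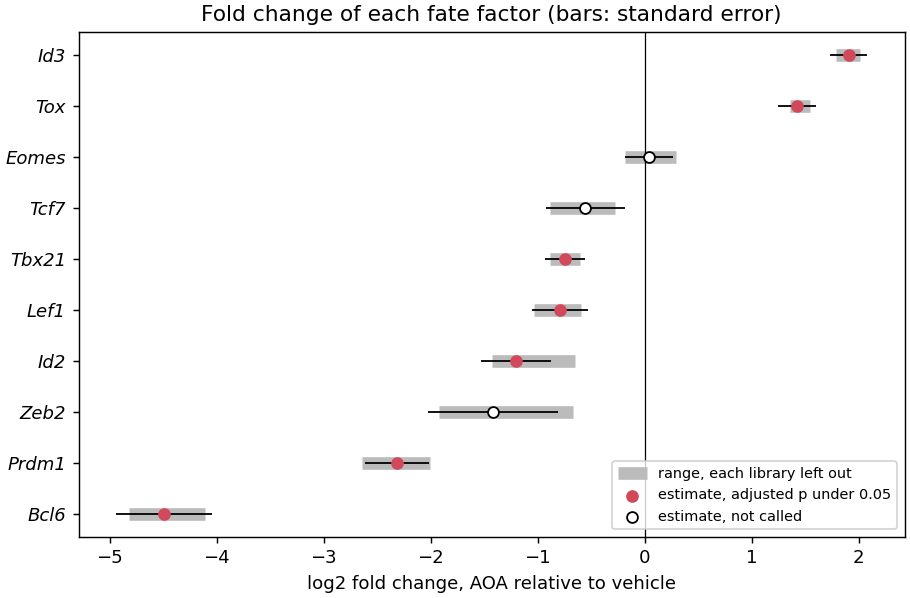
Log2 fold change of each fate factor with AOA relative to vehicle (points, edgeR), its standard error (thin bars) and the range of the estimate with each of the 6 libraries left out (grey). The values run from -4.49 for Bcl6 to 1.91 for Id3, and the range of Eomes spans 0.

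The T-box factors share a DNA-binding domain and cover overlapping targets, T-bet being the driver of interferon gamma production and effector differentiation and EOMES contributing to cytotoxic function and to memory. Tbx21 (Entrez gene 57765) lies on the minus strand of chromosome 11 from 97098071 to 97115331 in the GRCm38 annotation. Its levels were 70.3, 75.8 and 54.4 CPM in vehicle replicates 1, 2 and 3 and 32.0, 47.8 and 40.0 CPM in AOA replicates 1, 2 and 3, so every AOA library lay below every vehicle library. Group means ± SD (n = 3 each) were 66.8 ± 11.1 and 40.0 ± 7.90 CPM, and edgeR put the log2 fold change at -0.74 ± 0.19 (standard error) with an adjusted p of 0.00836. Tbx21 was among the genes that the study singled out in these libraries, so its fall is not independent evidence of a direction. It fell in each mouse and was called under every alternative, with an adjusted p of at most 0.0363. Eomes (Entrez gene 13813), on the plus strand of chromosome 9 from 118478212 to 118486132, had 134, 194 and 125 CPM with vehicle and 121, 201 and 144 CPM with AOA. These groups overlapped fully, and mouse 2 had the highest level in both. The edgeR estimate for Eomes was a log2 change of 0.04 ± 0.23 (adjusted p = 0.895), and the sign of this estimate changed with the library left out, from -0.19 to 0.30.

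The 250 bases before the RefSeq start site of Tbx21 (GRCm38.p6, minus strand, chr11:97115332-97115581) are printed because this gene fell in every mouse and the window holds no annotated exon. They were searched on both strands for the E-box CAGGTG, which E proteins and ZEB factors bind, the E-box CAGCTG, the TCF/LEF core CTTTGA, the T-box motif GGTGTGA, the BCL6-type motif TTCCNNGAA, the STAT-type motif TTCNNNGAA, of which the BCL6-type motif is a special case, and the Blimp-1-type motif GTGAAAG. The only match, a CAGGTG, is in capitals. A CAGGTG was present in 17.2% of the 32851 RefSeq promoter windows of this length, so a match is a description and not a binding site.
Tbx21: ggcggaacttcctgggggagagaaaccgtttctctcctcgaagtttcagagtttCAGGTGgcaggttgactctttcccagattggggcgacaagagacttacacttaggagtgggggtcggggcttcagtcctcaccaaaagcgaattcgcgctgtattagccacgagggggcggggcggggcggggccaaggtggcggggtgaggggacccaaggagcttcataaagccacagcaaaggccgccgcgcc

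TCF-1 and LEF-1 are HMG-box factors that bind the same core sequence and hold the naive and memory program in place. Tcf7 (Entrez gene 21414; chromosome 11, minus strand, 52252371 to 52283014) was the most abundant of the fate factors. Its levels were 1585, 525 and 1642 CPM in vehicle replicates 1, 2 and 3 and 710, 940 and 906 CPM in the AOA libraries. The AOA libraries lay between vehicle replicate 2 and the other vehicle libraries, and means ± SD (n = 3 each) were 1250 ± 629 and 852 ± 124 CPM. In edgeR the log2 change of -0.55 ± 0.37 was not called (adjusted p = 0.232). Without vehicle replicate 2 it was -0.89 and was called (adjusted p = 0.00265 by edgeR), the only alternative in which this happened.

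Lef1 (Entrez gene 16842; chromosome 3, plus strand, 131110471 to 131224356) resembled Tcf7 in its low vehicle replicate 2, with 328, 159 and 332 CPM with vehicle and 133, 177 and 163 CPM with AOA. Vehicle replicate 2 thus fell within the range of the AOA libraries. Lef1 nonetheless passed the test, at a log2 change of -0.79 ± 0.26 (edgeR, adjusted p = 0.0304). Within mice, the log2 level moved by -1.30 in mouse 1 and -1.03 in mouse 3 but by 0.16 in mouse 2, and for Tcf7 the differences of mice 1, 3 and 2 were -1.16, -0.86 and 0.84. The call of Lef1 was lost without vehicle replicate 1, vehicle replicate 3, AOA replicate 1 or AOA replicate 3, with adjusted p between 0.0742 and 0.125 in edgeR, whereas removing vehicle replicate 2 gave a log2 change of -1.03.

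Tox (Entrez gene 252838; chromosome 4, minus strand, 6686353 to 6991557), another HMG-box factor, had 9.29, 8.50 and 10.2 CPM in the vehicle libraries and 20.8, 27.4 and 27.0 CPM in the AOA libraries. All AOA libraries lay above all vehicle libraries, and vehicle replicate 2 was close to its group. Means ± SD (n = 3 each) were 9.33 ± 0.856 and 25.0 ± 3.70 CPM, a 2.68-fold rise, for which edgeR gave 1.42 ± 0.18 on the log2 scale and an adjusted p of 2.37e-04. Over all alternatives its log2 fold change lay between 1.36 and 1.54, each of them called.

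ID2 and ID3 lack a basic region for binding DNA and act by capturing E proteins, ID2 being linked to effector cells and ID3 to long-lived memory cells. Id3 (Entrez gene 15903; chromosome 4, plus strand, 136143497 to 136145755) rose from 14.9, 11.6 and 14.5 CPM with vehicle to 59.6, 44.2 and 50.2 CPM with AOA. The lowest AOA library was well above the highest vehicle library, and means ± SD (n = 3 each) were 13.7 ± 1.82 and 51.3 ± 7.76 CPM. The rise was 3.75-fold (1.91 ± 0.17 on the log2 scale, edgeR adjusted p = 4.50e-05), and within mice the log2 differences were 1.99, 1.92 and 1.78. Id2 (Entrez gene 15902; chromosome 12, minus strand, 25093799 to 25097140) moved the other way, from 284, 592 and 235 CPM with vehicle to 199, 157 and 126 CPM with AOA. The groups did not overlap, although vehicle replicate 2 was far above the other libraries, and means ± SD (n = 3 each) were 370 ± 194 and 161 ± 36.9 CPM. Id2 had a log2 change of -1.20 ± 0.33 (edgeR adjusted p = 0.0131). Without vehicle replicate 2 it was -0.65 and still called (adjusted p = 0.0172 by edgeR), whereas the call was lost without AOA replicate 2 or AOA replicate 3 (adjusted p of 0.0547 and 0.0604 by edgeR).

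Of the zinc finger repressors, BCL6 is known for the formation of memory precursor and follicular T cells, Blimp-1 for terminal differentiation, and ZEB2 for acting downstream of T-bet in terminal effector cells. Bcl6 (Entrez gene 12053; chromosome 16, minus strand, 23965052 to 23988852) had the largest change among the fate factors. It went from 70.8, 21.2 and 55.5 CPM with vehicle to 1.65, 2.06 and 2.82 CPM with AOA, or from 892, 335 and 1023 counts to 36, 39 and 56. Even vehicle replicate 2, the lowest of its group, was far above the AOA libraries, and means ± SD (n = 3 each) were 49.2 ± 25.4 and 2.18 ± 0.594 CPM. The fall was 22.5-fold (-4.49 ± 0.45 on the log2 scale, edgeR adjusted p = 7.60e-05), and 0.816% of all genes tested had a larger absolute change. The estimate lay between -4.82 and -4.11 over all alternatives, and it was called in each.

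Prdm1 (Entrez gene 12142; chromosome 10, minus strand, 44437177 to 44528501) fell from 21.3, 35.8 and 22.5 CPM with vehicle to 4.23, 7.56 and 4.24 CPM with AOA. The groups were widely separated, and mouse 2 was the highest in both, with means ± SD (n = 3 each) of 26.5 ± 8.03 and 5.34 ± 1.92 CPM. The fall was 4.97-fold (-2.31 ± 0.30 on the log2 scale, edgeR adjusted p = 2.77e-04). It was almost the same in every mouse, with log2 differences of -2.30, -2.23 and -2.38.

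Zeb2 (Entrez gene 24136; chromosome 2, minus strand, 44983632 to 45117395) was barely expressed, with counts of 28, 86 and 29 under vehicle and of 8, 35 and 25 under AOA. These are 2.22, 5.45 and 1.57 CPM against 0.368, 1.85 and 1.26 CPM, and the groups overlapped. The log2 change of -1.42 ± 0.61 was not called by edgeR (adjusted p = 0.0766). In the fit with mouse as a replicate block it was -1.40 ± 0.42 and was called (edgeR adjusted p = 0.0162), Zeb2 being lower with AOA in each mouse. Without vehicle replicate 2 the estimate was -0.67 (adjusted p = 0.316 by edgeR). It was -0.98 without AOA replicate 1 and -1.92 without AOA replicate 2, so its size moved with several of the libraries. Exons of Zeb2 overlap the antisense gene Zeb2os, and exons of 5 of the factors, namely Eomes, Lef1, Bcl6, Tox and Zeb2, overlap a gene annotated on the opposite strand. The library kit kept the strand, but no source used here says whether the counting did, so reads of such a partner cannot be told apart from their own.

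The 250 bases before the start sites of Bcl6 (GRCm38.p6, minus strand, chr16:23988853-23989102) and Prdm1 (GRCm38.p6, minus strand, chr10:44458749-44458998) are printed because these genes had the largest falls and the windows hold no annotated exon. The Prdm1 window lies inside the longer gene span of the GENCODE annotation. Capitals mark matches to the motifs listed for Tbx21. Bcl6 had a STAT-type match, a motif found in 7.02% of all promoter windows, and Prdm1 had a CAGGTG. The TCF/LEF, T-box, BCL6-type and Blimp-1-type motifs had no match in the windows of the 9 fate factors with an entry in the RefSeq table, and were found in 13.8%, 3.33%, 4.06% and 3.57% of all windows. No match says only that these letters are not in this window. Tox had no entry.
Bcl6: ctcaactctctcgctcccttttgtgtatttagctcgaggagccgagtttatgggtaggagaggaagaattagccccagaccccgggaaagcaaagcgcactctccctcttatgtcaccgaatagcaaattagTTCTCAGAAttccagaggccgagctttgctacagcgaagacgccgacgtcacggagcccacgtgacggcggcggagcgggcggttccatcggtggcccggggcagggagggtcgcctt
Prdm1: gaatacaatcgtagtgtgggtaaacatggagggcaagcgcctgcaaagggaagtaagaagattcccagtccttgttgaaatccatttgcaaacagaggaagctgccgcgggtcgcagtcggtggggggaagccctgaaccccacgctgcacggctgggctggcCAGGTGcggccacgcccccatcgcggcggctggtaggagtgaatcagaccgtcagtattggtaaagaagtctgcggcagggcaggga

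Compared per gene length, as TPM, which divides counts by gene length and scales every library to the same sum over the genes of the table, the fate factors spanned a wide range. Tcf7 was the highest in both groups, with means of 932 TPM with vehicle and 635 TPM with AOA, and Zeb2 was the lowest, with 0.693 and 0.260 TPM. In the vehicle group the order after Tcf7 was Id2 at 610, Lef1 at 152, Eomes at 84.5, Tbx21 at 54.3, Id3 at 29.6, Bcl6 at 20.0, Prdm1 at 10.6 and Tox at 6.75 TPM. Neighbours whose libraries overlapped in this order were Tcf7 and Id2, Lef1 and Eomes, Id3 and Bcl6, and Bcl6 and Prdm1. With AOA, Id3 moved up to the place after Id2, at 108 TPM, next to Lef1 at 87.1 and Eomes at 85.4 TPM, and these neighbours overlapped. Tox, at 17.9 TPM, took the seventh place, ahead of Prdm1 at 2.10 and Bcl6 at 0.888 TPM, and no libraries of these neighbours overlapped. Values per gene length scaled by TMM in place of TPM gave the same order in both groups. Of the summed TPM of the 10 factors, Tcf7 made up 58.4%, 23.7% and 62.2% in vehicle replicates 1, 2 and 3, and Id2 22.5%, 57.5% and 19.2%. In vehicle replicate 2 these factors had changed places. In the AOA libraries the shares of Tcf7 were 45.7%, 53.2% and 55.9%, and Id3 held between 7.18% and 11.0% against at most 1.58% with vehicle.

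**Figure D3:**
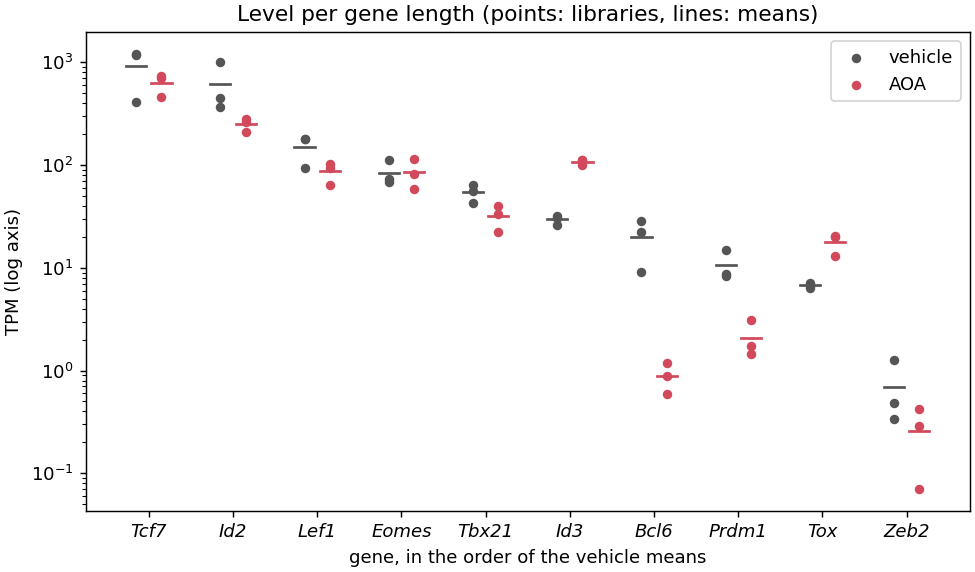
Level per gene length of each fate factor in TPM on a log axis, with a point for each library and a line at each group mean. The genes are in the order of the vehicle means, and Id3 and Tox move up and Bcl6 and Prdm1 move down with AOA.

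Ratios of 2 factors within a library need no scaling between libraries and show how the factors of a pair shifted against each other. Of 8 pairs planned, 7 were compared, since Tox2 was not analysed here, and a two-sided exact permutation test over 3 against 3 libraries cannot give a p below 0.1. The log2 ratio of Id2 to Id3 counts was 4.25, 5.67 and 4.01 with vehicle and 1.74, 1.83 and 1.32 with AOA. It fell by 3.01 without overlap, the largest shift of the 7, with the smallest p the test allows (exact p = 0.1, adjusted p = 0.233 over the pairs). The log2 ratio of Tbx21 to Eomes was -0.93, -1.35 and -1.20 with vehicle and -1.91, -2.07 and -1.84 with AOA, again without overlap and with the same exact p. The difference, -0.78, had the same sign in all 3 mice. For Tcf7 over Lef1 the log2 ratio was 2.27, 1.72 and 2.31 with vehicle and 2.42, 2.41 and 2.48 with AOA. This was a small mean difference of 0.33 without overlap (exact permutation p = 0.1), and it came to 0.68 in mouse 2 and to at most 0.17 in the other mice, so that it was 0.15 without vehicle replicate 2.

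Prdm1 and Bcl6 both fell, but Bcl6 fell further. Their log2 ratio was -1.73, 0.75 and -1.30 with vehicle and 1.34, 1.86 and 0.58 with AOA, a mean difference of 2.02 (exact permutation p = 0.2, adjusted p = 0.35 over the pairs), or 2.78 without vehicle replicate 2. Counts of Bcl6 exceeded those of Prdm1 in vehicle replicates 1 and 3 alone. The groups overlapped for Tcf7 over Tbx21 (mean difference 0.36), Id2 over Tbx21 (-0.36) and Zeb2 over Zeb1 (-1.03), with exact permutation p of 0.9, 0.5 and 0.5. Single libraries weighed heavily on these pairs: without vehicle replicate 2 the differences were -0.28, -0.06 and -0.26, and the extremes over all left-out libraries were -0.28 and 0.78 for Tcf7 over Tbx21, -0.68 and -0.06 for Id2 over Tbx21, and -1.54 and -0.26 for Zeb2 over Zeb1.

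**Figure D4:**
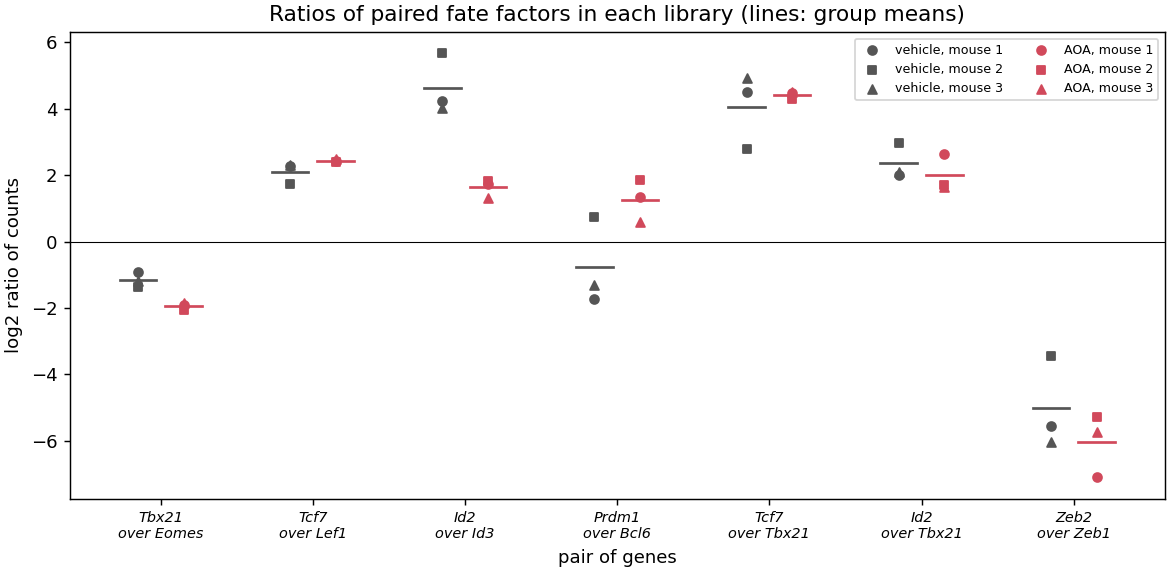
Log2 ratios of counts for 7 pairs of genes in each library, vehicle in grey and AOA in red, with the symbol giving the mouse and lines at the group means. The groups are separate for Tbx21 over Eomes, Tcf7 over Lef1 and Id2 over Id3, and overlap for the other pairs.

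The fate factors also varied within the groups. As deviations from the group mean of log2 CPM, vehicle replicate 2 was at -1.08 for Tcf7, -1.04 for Bcl6 and -0.70 for Lef1. The same library was at 0.99 for Zeb2, 0.80 for Id2, 0.47 for Prdm1 and 0.39 for Eomes. Tcf7, Lef1 and Bcl6 were thus low, and Zeb2, Id2 and Prdm1 high, in this culture. The AOA culture of the same mouse was likewise high for Zeb2 (0.85), Prdm1 (0.55) and Eomes (0.41), but was at 0.15 for Tcf7, -0.05 for Bcl6 and -0.01 for Id2. Id3 and Tox differed little between replicates, with no deviation beyond 0.26 in either direction. These deviations are a description and were not tested.

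**Figure D5:**
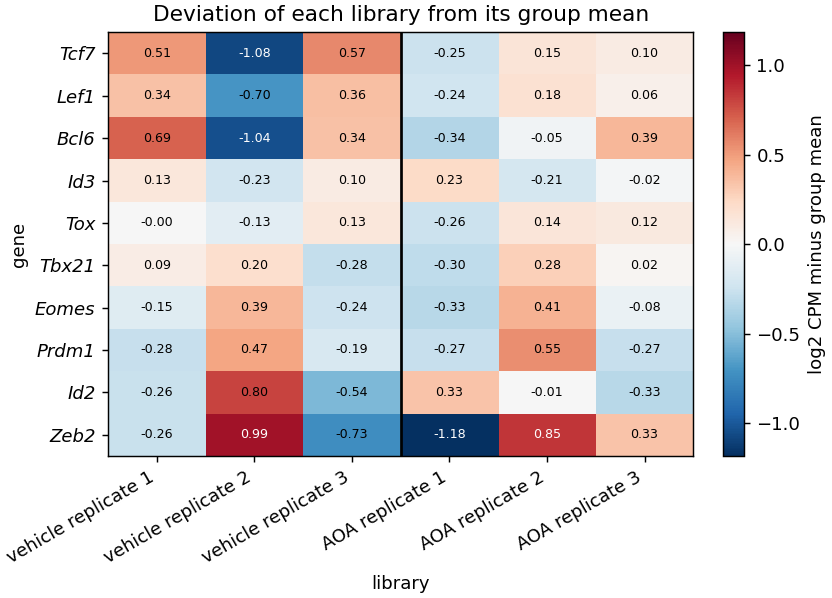
Deviation of each library from the mean of its group, in log2 CPM, for the 10 fate factors. Vehicle replicate 2 is low for Tcf7, Bcl6 and Lef1 and high for Zeb2, Id2 and Prdm1, and AOA replicate 2 shares the high values of Zeb2, Prdm1 and Eomes.

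Levels of markers of other cells moved with the treatment too. Of 6 CD4 T cell markers tested 4 were lower with AOA (Cd4, Zbtb7b, Cd40lg and Ctla4), and the summed level of the list ranged from 523 to 950 CPM with vehicle and from 153 to 223 CPM with AOA. Most of it was Ctla4, which activated CD8+ T cells also express. Cd4 itself fell from between 63.1 and 119 CPM to between 5.65 and 12.2 CPM. Of 4 markers of NK and innate lymphoid cells tested 3 were lower (Klrb1c, Klre1 and Gata3), the sum of the list going from between 94.0 and 189 CPM to between 52.4 and 68.3 CPM. With AOA most of that sum was Gata3, at 36.2, 46.6 and 44.1 CPM, which is also counted below among other T cell fate transcription factors. Klrb1c was at 41.7, 111 and 20.1 CPM in vehicle replicates 1, 2 and 3. Its log2 fold change was -3.02, or -2.07 without vehicle replicate 2. Ncr1, the defining receptor of NK cells, had 0, 37 and 0 counts with vehicle and 5, 11 and 3 counts with AOA. B cell markers summed to between 14.2 and 20.4 CPM with vehicle and between 23.5 and 31.2 CPM with AOA, and Cd79b was higher and Cd22 lower. Of 4 myeloid markers tested 3 were lower (Itgam, Cd68 and Fcgr3, of which activated CD8+ T cells can express Itgam), the sum of the list ranging between 109 and 123 CPM with vehicle and between 61.3 and 75.4 CPM with AOA, with Lyz2 at 22 counts or fewer. With AOA most of that sum was Cst3, which many cell types express and which was not called, at means of 49.6 CPM with vehicle and 61.0 CPM with AOA. Of 7 CD8 T cell markers tested Cd8a, Cd8b1 and Thy1 were higher and Cd2 lower, Cd8a going from 785 ± 130 to 1608 ± 134 CPM (mean ± SD, n = 3 each). The call of Cd8b1 was lost without AOA replicate 3, that of Cd2 without vehicle replicate 3, AOA replicate 2 or AOA replicate 3, and that of Gata3 without vehicle replicate 1, vehicle replicate 3, AOA replicate 1 or AOA replicate 3. The cells had been positively selected with beads against CD8α, a step meant to leave out cells without it, and the methods give no purity. CD4 T cells are known to express Bcl6, Tcf7, Lef1 and Tox too, and NK cells Tbx21, Eomes, Id2, Prdm1 and Zeb2. The part of such cells in the results was not tested.

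The factors sit within a wider network, which was followed with lists of partners, relatives, targets and upstream receptors, some genes standing in more than 1 list. Of 14 E proteins and corepressors, 1 was higher and 2 were lower, and 11 were not called, beside 53.0% called among all genes tested, and the median log2 fold change was -0.21. Tcf3 and Tcf12, the abundant E proteins that ID2 and ID3 capture, had log2 fold changes of -0.24 and -0.21 and were not called. Tcf4, an E protein at a much lower level, fell from 11.2 ± 0.824 CPM to 3.07 ± 0.770 CPM (SD, n = 3 each), and Ctbp1, a corepressor used by ZEB factors, rose from 181 ± 4.22 to 315 ± 12.1 CPM (SD, n = 3 each), with adjusted p of 3.15e-04 and 7.43e-04 in edgeR. Tle2, a Groucho corepressor that is named after its values were seen, was the other gene that fell (-3.29 ± 0.31 on the log2 scale, edgeR adjusted p = 5.71e-05). Of 10 paralogues of the factors 3 were in the table, and 1 of them, the weakly expressed Tcf7l1, was called higher and is named after its values were seen, at no more than 1.11 CPM in any library, and its call was lost without any library other than vehicle replicate 3. Zeb1, the paralogue of Zeb2, was at 105, 60.1 and 105 CPM with vehicle and 53.7, 73.0 and 68.9 CPM with AOA, and was not called (log2 fold change -0.47, adjusted p = 0.105 by edgeR), although it was without vehicle replicate 2 (-0.65, adjusted p = 0.00613).

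Of 30 other T cell fate transcription factors 21 were lower and 0 higher with AOA, where 26.8% and 26.2% of all genes tested were, and the median log2 fold change was -0.92. At an unadjusted p under 0.05, and also by DESeq2 and limma, the count of higher genes was 0. Nr4a3 and Nr4a1, nuclear receptors induced by antigen receptor signals, fell by 2.56 and 2.47 on the log2 scale, and Bhlhe40, a repressor that supports cytokine production, fell by 2.48, from 359 ± 171 to 64.3 ± 8.34 CPM (SD, n = 3 each, adjusted p = 2.05e-04 by edgeR). Nr4a1 was already low in vehicle replicate 2, at 3.61 CPM against 20.1 and 19.7 CPM in the other vehicle libraries, and its log2 difference in mouse 2 was -0.11. Without vehicle replicate 2, 25 of the list were lower and 1 was higher, and with each library left out the lower ones numbered from 15 to 25.

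Of 13 targets of T-bet and EOMES tested, 9 were lower and 1 was higher, against 26.8% and 26.2% of all genes tested, with a median log2 fold change of -1.11. Prf1 and some others of the list were also singled out by the study in these libraries. Ccl5, a chemokine of effector cells, went from 311 ± 98.2 to 8.34 ± 3.19 CPM (SD, n = 3 each), or -5.22 ± 0.36 on the log2 scale (edgeR adjusted p = 1.51e-05). Prf1, which encodes perforin, and Il12rb2, a chain of the interleukin-12 receptor, had log2 fold changes of -3.15 and -1.98. Prf1 was at 47.9, 227 and 44.6 CPM with vehicle, and leaving out vehicle replicate 2 reduced the log2 change to -1.91. The gene that was higher, Cx3cr1, is named after its values were seen and did not exceed 1.06 CPM in any library, and its call was lost without any library other than vehicle replicate 2. Ifng was not called (log2 fold change -0.54, adjusted p = 0.293 by edgeR).

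Of 16 genes of the TCF-1 and LEF-1 program, 2 were higher and 7 lower, beside 26.2% and 26.8% of all genes tested, and 7 were not called. The share called in either direction was near the 53.0% of all genes tested, and the median log2 fold change was -0.37. Dapl1 and Axin2, the latter a target of Wnt signalling, rose by log2 fold changes of 2.12 and 0.85. Il7r, the receptor chain of memory survival, Myb and Bach2, transcription factors that preserve memory potential, fell by 4.46, 1.79 and 1.66 on the log2 scale. Without AOA replicate 1, 4 of these genes were called lower and 1 higher, and Axin2 lost its call without vehicle replicate 1 or any AOA library.

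Receptors that TOX is known to sustain fell while Tox rose. Of 8, 7 were lower and 0 higher by edgeR, beside 26.8% and 26.2% of all genes tested, and the count of higher genes was also 0 at an unadjusted p under 0.05 and by DESeq2 and limma. Havcr2, Lag3 and Pdcd1, which encode TIM-3, LAG-3 and PD-1, had log2 fold changes of -5.01, -3.23 and -2.76, and their levels with AOA were 1.99 ± 0.512, 13.9 ± 7.62 and 6.74 ± 0.819 CPM (SD, n = 3 each). Without vehicle replicate 2 the log2 fold change of Havcr2 was -4.19. Cd160 was not called (log2 fold change -0.15, adjusted p = 0.676 by edgeR).

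Of 21 receptors and signal transducers upstream of the factors, 3 were higher and 10 lower, beside 26.2% and 26.8% of all genes tested. The share called in either direction was not far from the 53.0% of all genes tested, and the median log2 fold change was -0.42. Il6ra, Tgfbr1 and Il21r, receptor chains for interleukin-6, TGF-beta and interleukin-21, rose by log2 fold changes of 1.12, 0.79 and 0.45. Tgfbr2, the partner chain of Tgfbr1, is named after its values were seen and fell by 1.55 on the log2 scale, from a mean of 493 to 168 CPM. The calls of Il6ra and Il21r were both lost without vehicle replicate 1 or any AOA library, and that of Il21r also without vehicle replicate 2. Il7r, Il12rb2 and Ifngr1 had the largest falls, Ifngr1 going from 1817 ± 307 to 553 ± 58.2 CPM (SD, n = 3 each, adjusted p = 1.20e-04 by edgeR). The chains of the interleukin-2 receptor, through which both groups were kept alive in culture, were not called, with log2 fold changes of 0.03 for Il2ra, -0.32 for Il2rb and 0.15 for Il2rg.

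As a description of how common each profile was, log2 CPM of every tested gene was set against that of each factor over the same 6 libraries, in which the treatment itself separates the groups. Poli and Fxyd1 were most like Bcl6, Gm13546 and Alpk2 most like Prdm1, Spc24 and Hmgb2 most like Id3, and Spdl1 and Gucy1a1 most like Tox, each with a higher Pearson r than any gene reached for the other 6 factors. For Bcl6, 1141 genes passed an r of 0.95, and for Id3 969 did, whereas 11 did for Eomes and 42 for Tcf7. Slc17a7 and Prdm4 were most like Eomes, Plekhg2 and Cand2 most like Tcf7, Ppard and Phlpp1 most like Lef1, Ago3 and Ice2 most like Id2, Impg2 and Nrp1 most like Tbx21, and Pip4k2c and Ptprj most like Zeb2, with r of at least 0.985.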

How the data were processed

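RNA of CD8+ T cells from 3 mice was sequenced after 7 days of vehicle or 0.25 mM AOA. Per the labels and methods, the authors made stranded mRNA libraries, aligned the paired reads using STAR with default parameters, and deposited the raw count of uniquely mapped reads per gene beside a gene length. The submitters' processing notes also name featureCounts and mm10. No source used here gives the annotation, the strand setting or any filter behind the 11922 genes. All 6 columns of counts matched a sample.

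edgeR 4.0.16 (R 4.3.3) was run on the deposited counts. filterByExpr (minimum count 10) left 11759 genes, which were scaled by TMM and fitted with the robust quasi-likelihood test without a mouse term, and p-values were adjusted over all of them (Benjamini-Hochberg). CPM is based on TMM library sizes, log2 CPM on a prior count of 2, TPM on the deposited gene length and ratios on a pseudocount of 0.5. Alternatives were DESeq2 1.42.0, limma 3.58.1 (voom), other scalings and filters, the mouse as a replicate block, removal of the trend with gene length, thinning to equal totals and each library left out. The steps were tested on simulated data.

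Libraries were paired by the mouse donor number that the labels give for each. Within mice 1, 2 and 3, deviations from the group mean had a correlation over genes of 0.0868, 0.189 and 0.194. Genes are not independent replicates. Replicates differed beyond sampling noise and were counted singly.

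The members and gene lists were chosen with earlier results of these data known. Besides the members, the text names up to 3 called genes per direction of each list, by the largest absolute log2 fold change among genes that moved the same way in each mouse and averaged 10 CPM or more in either group, each list gene of a ratio pair, and the 2 genes most similar to each member. Single values of some list genes are not reported here. Uncalled genes given for contrast, marker genes, and genes said to be so were chosen after their values were seen. Gene positions are from GENCODE vM21 (GRCm38) and promoter sequences from RefSeq (GRCm38.p6), where 9 members had an entry.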

Additional observations from a re-analysis of the deposited data

How the results depend on the processing

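The precision is limited by 3 cultures per group and, for Zeb2 (8 to 86 counts per library) and Bcl6 with AOA (36 to 56), also by depth. Id3, Tox, Bcl6, Prdm1 and Tbx21 kept their direction and call under every alternative. Lef1 was no longer called with the replicate block and the length trend removed (-0.67). Zeb2 was called with the replicate block (-1.40) and with the block and the length trend removed (-1.20), and without vehicle replicate 3 (-1.72), and the block changed no other call among the 10 factors. Zeb2 could not be fitted under the 10 CPM filter, which leaves it out. With each library left out, the log2 fold change ranged from -0.19 to 0.30 for Eomes, negative without vehicle replicate 1 (-0.02), vehicle replicate 3 (-0.06) or AOA replicate 2, from -0.89 to -0.28 for Tcf7, from -1.03 to -0.60 for Lef1, from -1.43 to -0.65 for Id2 and from -1.92 to -0.67 for Zeb2. The log2 ratio of Tcf7 over Tbx21 ranged from -0.28, without vehicle replicate 2, to 0.78. The cause of these shifts was not tested.

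Factors called lower ranged from 3 to 6 and those called in either direction from 5 to 8 with each library left out. The called higher paralogue was lost (0) under DESeq2 and without a filter, and the higher T-bet and EOMES target was lost (0) under DESeq2. The 10 CPM filter left both genes untested (0), as thinning did for the T-bet and EOMES target (0). Left-out libraries gave 0 to 1 higher and 0 to 1 lower paralogues, 0 to 1 other fate factors higher, 0 to 1 T-bet and EOMES targets higher, 1 to 3 higher and 4 to 9 lower genes of the TCF-1 and LEF-1 program, and 1 to 3 upstream genes higher. The median log2 fold change of all genes was -0.016 with median-of-ratios scaling and -0.010 with total counts only. Over all alternatives it lay between -0.0423, without AOA replicate 1, and 0.0332, with the replicate block and the length trend removed.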
